A study of Homo sapiens with 4 samples.

Results

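The genes described here are 33 named genes of the cell death machinery: BCL2 family proteins, caspases, inhibitor of apoptosis (IAP) proteins, the adaptors of death receptors and the gasdermins GSDMD and GSDME. They were taken from a fixed list of symbols matched to the Ensembl identifiers of the deposited tables, which hold 60683 gene identifiers in all, and all 33 matched. Genes treated as p53 targets, such as BAX, were not on that list. After the filter on low counts 31 of the 33 were tested, among 14470 genes. BCL2A1, a pro-survival protein best known from blood cells, and CASP1, an inflammatory caspase, had 0 counts in each of the 4 libraries, and a count of 0 here allows at most 0.193 to 0.211 CPM, the count scaled to a common library size (3 counts per library, counting error only).

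Polyadenylated RNA was sequenced from HCT116, an established human colorectal carcinoma line, in the absence or presence of ectopic FOXD2, a forkhead transcription factor. All cells carried a pSin lentivirus and were kept under puromycin selection at 5 µg/ml: the 2 control libraries came from cells with the empty vector, and the 2 FOXD2 libraries from cells with the full-length FOXD2 coding sequence. The labels number the libraries 1 and 2 within a group but do not say whether they came from separate transductions or cultures, so the p-values measure only the spread between these libraries, which may be technical. Each library held between 14231368 and 15535845 counts. FOXD2 itself gave 49 and 42 counts with the empty vector and 8195 and 7011 with the transgene, a log2 fold change of 7.32 (SE 0.10), with transgene and endogenous reads not told apart. Of 9 markers of colorectal epithelium, 5 rose (EPCAM, CDH1, KRT8, KRT18 and KRT19) and 1, CDX2, fell (log2 fold change -0.51, SE 0.13). CEACAM5 was at 0, with VIL1 and LGALS4 at 6 counts or fewer, in every library. The summed level of the 9 went from 4406 and 4537 to 8336 and 7829 CPM, most of it from KRT8, KRT18 and KRT19. Among 6 fibroblast markers COL1A2, DCN and LUM were at 0 in all libraries, and COL3A1 and PDGFRB had 6 counts or fewer in each. COL1A1 rose (log2 fold change 1.68, SE 0.12). The summed level went from 9.50 and 11.2 to 32.1 and 33.4 CPM, nearly all of it COL1A1 (9.43 and 10.6 against 31.4 and 32.8 CPM). The 8 markers of blood and endothelium summed to between 0.926 and 1.92 CPM, and 3 of them were at 0. The 3 markers of packaging cells summed to 69.3 and 71.9 against 98.2 and 88.3 CPM but split in direction. VGF and PAX2 rose (log2 fold changes 1.16, SE 0.09, and 0.42, SE 0.16), and ZIC2 fell (-0.57, SE 0.10). The part of these marker shifts in the results below was not tested.

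Mitochondrial apoptosis is controlled by the BCL2 family. Pro-survival members such as BCL2L1 (BCL-XL) and MCL1 hold the pore-forming effectors BAX and BAK1 in check or bind the BH3-only proteins. The BH3-only proteins sense stress and trigger the effectors. Once the outer mitochondrial membrane is permeable, cytochrome c binds APAF1 to build the apoptosome that activates CASP9, while DIABLO (SMAC) is released and displaces IAP proteins from caspases. Death receptors instead recruit FADD and CASP8 at the membrane, where CFLAR (c-FLIP) limits CASP8 activation. Gasdermins are pore proteins of the plasma membrane that are activated by cleavage: GSDMD by the inflammatory caspases CASP1 and CASP4, GSDME in the course of apoptosis. The measurements below are of mRNA per gene, with isoforms pooled. In a bulk sample fewer cells of a type and less RNA per cell cannot be told apart.

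The start regions of 5 members are shown, for 4 of the members that changed by at least 1.5-fold (CASP4, BCL2L1 and GSDME, which rose, and APAF1, which fell) and for BCL2L11, whose window held the forkhead core. They come from RefSeq (GRCh38.p14), each 300 bases long, 250 before and 50 after an annotated gene start, written 5′ to 3′ on the gene's strand. Capitals mark matches on either strand to the motifs searched: the forkhead core GTAAACA, the AP-1 site TGANTCA, the interferon regulatory factor (IRF) core AANNGAAA and the kappa-B consensus.
CASP4 (chr11:104968525-104968824, minus strand): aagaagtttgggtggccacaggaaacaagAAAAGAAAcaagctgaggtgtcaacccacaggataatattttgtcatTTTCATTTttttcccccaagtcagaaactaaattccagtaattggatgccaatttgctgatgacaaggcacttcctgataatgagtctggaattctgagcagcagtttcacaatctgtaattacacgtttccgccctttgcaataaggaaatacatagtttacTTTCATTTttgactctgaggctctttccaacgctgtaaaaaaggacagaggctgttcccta
BCL2L1 (chr20:31722819-31723118, minus strand): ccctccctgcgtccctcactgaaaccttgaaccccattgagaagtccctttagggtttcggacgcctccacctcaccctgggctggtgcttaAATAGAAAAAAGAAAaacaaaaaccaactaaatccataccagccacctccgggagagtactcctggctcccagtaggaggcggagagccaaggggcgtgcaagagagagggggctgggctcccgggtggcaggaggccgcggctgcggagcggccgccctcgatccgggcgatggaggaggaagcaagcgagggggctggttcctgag
GSDME (chr7:24757415-24757714, minus strand): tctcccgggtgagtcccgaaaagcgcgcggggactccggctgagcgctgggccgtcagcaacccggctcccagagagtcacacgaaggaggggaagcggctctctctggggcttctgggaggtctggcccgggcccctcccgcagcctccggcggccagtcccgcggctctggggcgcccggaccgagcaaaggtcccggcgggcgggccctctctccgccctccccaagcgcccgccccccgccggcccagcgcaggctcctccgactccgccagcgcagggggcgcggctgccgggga
APAF1 (chr12:98645040-98645339, plus strand): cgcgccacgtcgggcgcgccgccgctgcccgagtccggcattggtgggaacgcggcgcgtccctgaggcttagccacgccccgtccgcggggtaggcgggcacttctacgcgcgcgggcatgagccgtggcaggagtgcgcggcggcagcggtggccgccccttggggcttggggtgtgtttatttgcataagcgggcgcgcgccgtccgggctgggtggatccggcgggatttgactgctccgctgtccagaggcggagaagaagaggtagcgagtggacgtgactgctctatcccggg
BCL2L11 (chr2:111120664-111120963, plus strand): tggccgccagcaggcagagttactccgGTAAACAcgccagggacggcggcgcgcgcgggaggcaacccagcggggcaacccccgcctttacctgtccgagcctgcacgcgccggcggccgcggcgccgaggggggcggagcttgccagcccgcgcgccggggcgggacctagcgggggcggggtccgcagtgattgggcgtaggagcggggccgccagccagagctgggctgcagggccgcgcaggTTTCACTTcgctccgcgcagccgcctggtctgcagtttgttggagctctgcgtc

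The windows differ in base composition and in motif content. The CASP4 window has 39.7% G and C, 3 CpG dinucleotides and 3 IRF cores, at -221, -174 and -11 from the start, where motif positions give the first base on the gene's strand. The BCL2L1 window shown carries IRF cores at -158 and -151, which share 1 base. Another BCL2L1 window (chr20:31723914-31724213), not shown, holds 1 IRF core, at -139. BMF and CFLAR, which also rose, had windows with IRF cores and windows with none of the motifs, not shown. The windows of GSDME (77.0% G and C, 35 CpG) and APAF1 (71.3%, 42 CpG) hold none of the 4 motifs in these letters. A match is only a description of the letters. Among the members 26 had windows, 52 in all, and BCL2L2, MCL1, BIK, CASP10, CASP1, TRADD and GSDMD had none in the table. The IRF core stood in 15 of the 52 windows (28.9%), from 12 genes, and in 22.8% of all 35116 windows of the same length. Besides CASP4, BCL2L1, BMF and CFLAR, these genes were BOK and RIPK1, which rose, and DIABLO, which fell. The others were BCL2L11, BCL2L12, BCL2L13 and CASP8, which did not pass the test below, and BCL2A1, at 0 counts. The forkhead core stood in 1 member window, that of BCL2L11 at -223, and in 3.42% of all windows. The AP-1 site stood in 3 member windows and 4.95% of all, and the kappa-B consensus in 2 member windows and 7.73% of all.

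With FOXD2, 12 of the 31 tested genes rose and 4 fell at an adjusted p under 0.05 by edgeR's quasi-likelihood test, with p-values adjusted over all 14470 genes. The background for that count is broad, since 53.5% of all tested genes passed the same test and 51.6% of these genes did. Among all genes 27.2% rose and 26.4% fell, against 38.7% and 12.9% of these genes. Without scaling factors for library composition the split of these genes was 14 higher and 2 lower, and that of all genes also leaned upwards, at 4510 higher and 3109 lower against 3929 and 3814. The median log2 fold change was 0.13, with a range from -1.01 to 1.71, and the median over all tested genes was 0.01. At a fitted change of at least 1.5-fold 6 of the 31 rose (BCL2L1, MCL1, BMF, CASP4, CFLAR and GSDME) and 1 fell (APAF1), beside 14.9% and 7.8% of all genes. The CPM values of the 2 groups did not overlap in 25 of the 31, a share to be read beside 76.1% of all tested genes. CPM was computed on library sizes scaled for composition.

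**Figure D1:**
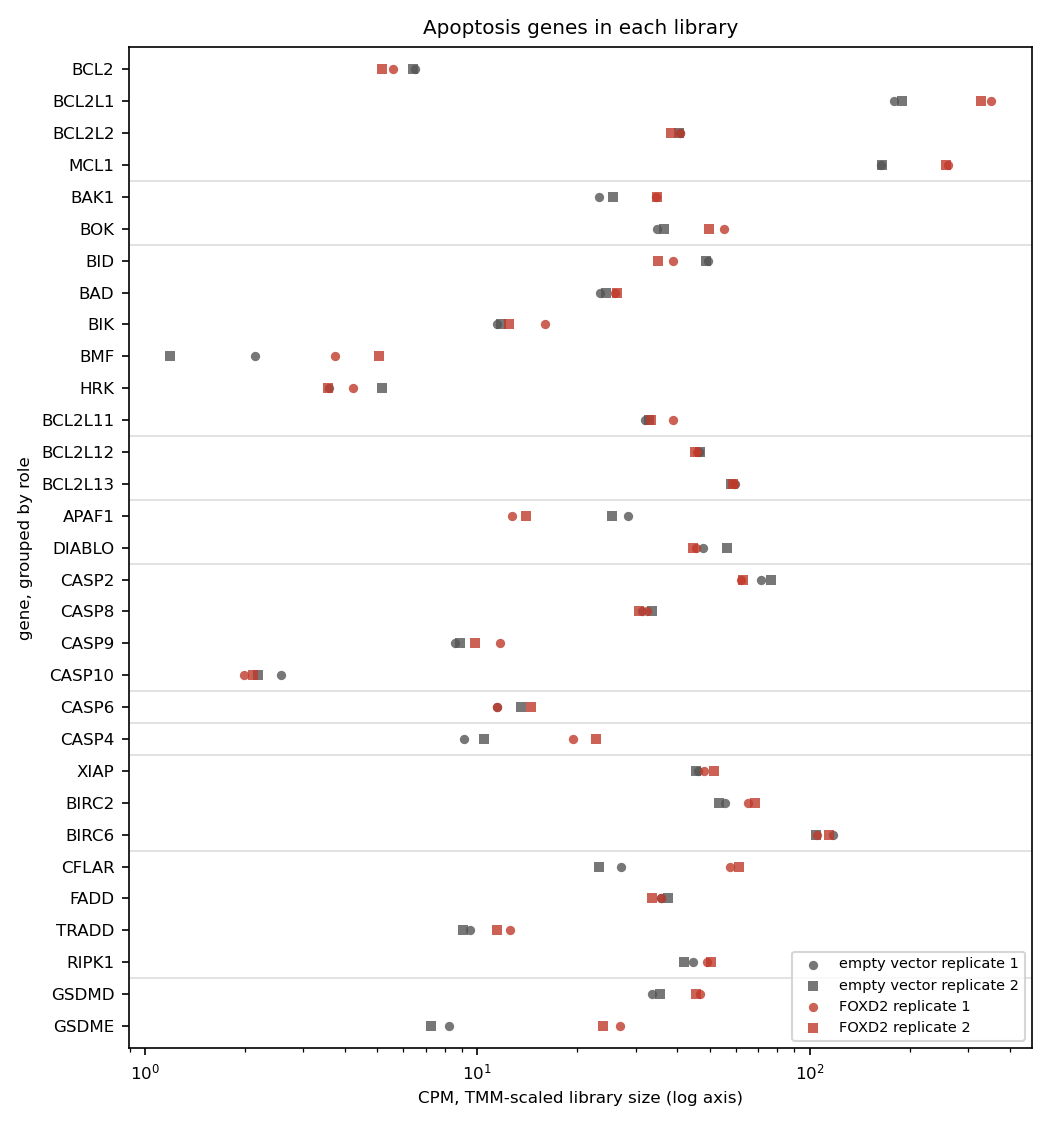
Level of each of the 31 tested genes in each library, as CPM on a log axis, ordered by role; grey marks are empty vector libraries, red marks FOXD2 libraries, circles replicate 1 and squares replicate 2. BCL2L1 lies at 179.8 and 189.9 CPM without and at 351.4 and 327.0 with FOXD2, while the marks of CASP8 and BIRC6 lie among each other.

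The pro-survival group was led by BCL2L1 and MCL1, and both rose, while BCL2 and BCL2L2 did not pass the test. BCL2L1, the gene of BCL-XL, stood at 179.8 and 189.9 CPM without and at 351.4 and 327.0 CPM with FOXD2. Each FOXD2 library lay far above each control, and the fitted rise was 1.83-fold (log2 0.88, SE 0.06, adjusted p = 1.53e-18 in edgeR). MCL1, a short-lived pro-survival protein, stood at 163.7 and 164.6 against 260.8 and 257.0 CPM. Its replicates differed by far less than its groups, and the fitted rise was 1.58-fold (log2 0.66, SE 0.06, adjusted p = 7.67e-14 in edgeR). BCL2, the founding member of the family, was low throughout, at 6.46 ± 0.0588 without and 5.38 ± 0.280 CPM with FOXD2 (SD, n = 2), and its log2 fold change was -0.26 (SE 0.20, adjusted p = 0.265 in edgeR). BCL2L2 (BCL-W) had a log2 fold change of -0.04 (SE 0.09, adjusted p = 0.710 in edgeR). Its reads are less certain than those of the other genes: it shares sequence with the readthrough gene BCL2L2-PABPN1, which was given 24 and 0 counts without and 72 and 108 with FOXD2, and the authors' posterior SD of its count reached 1.55% of the count.

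On the scale of TPM, a transcript abundance scaled to a common total, which corrects for transcript length and allows levels of different genes to be set side by side, BCL2L1 was the most abundant pro-survival gene in every library. It made up 59.2% and 60.4% of the summed pro-survival TPM without FOXD2 and 66.1% and 65.1% with it. MCL1 held the next place at 30.7% and 30.2% against 28.4% and 29.5%. The share of BCL2L2 went from 9.33% and 8.71% to 5.19% and 5.08%, while its own TPM was 17.5 and 16.6 without and 17.0 and 16.2 with FOXD2. BCL2 gave 0.834% and 0.670% against 0.351% and 0.349%, and the order of the 4 genes was the same in every library. The summed TPM of the group was 187.0 and 190.9 without and 327.8 and 318.1 with FOXD2, a ratio of 1.71. On the log2 scale the ratio was 0.77, and 0.71 after TPM was divided by the scaling factors for library composition. With 2 libraries a group, such a sum was given no test.

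**Figure D2:**
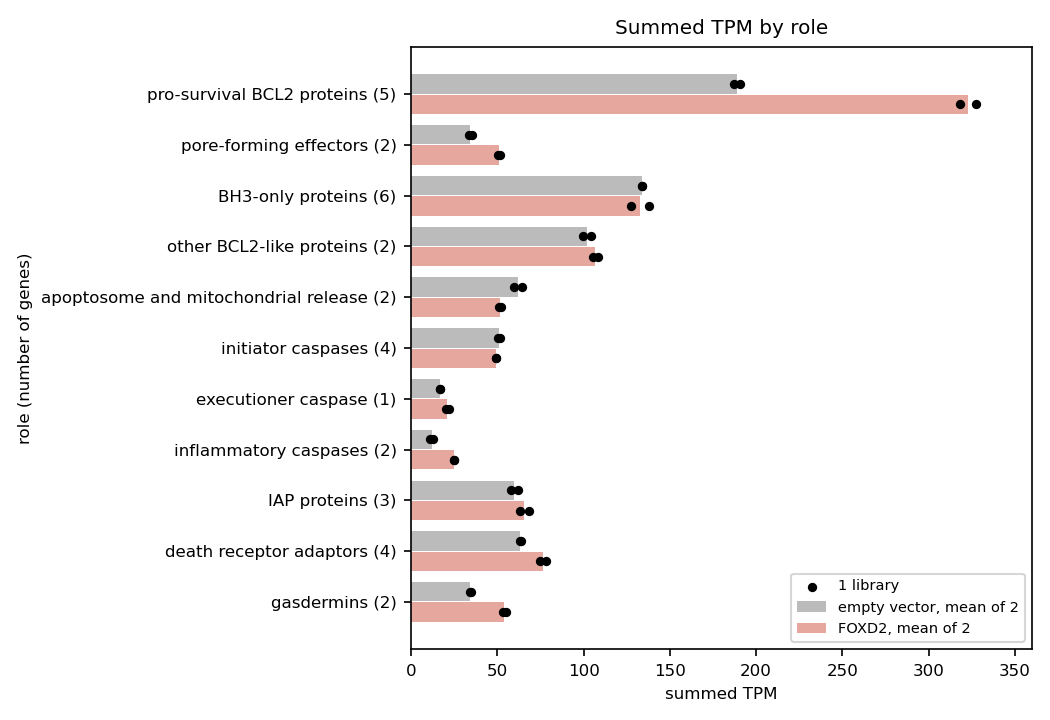
Summed TPM of the genes of each role; bars are the mean of 2 libraries (grey, empty vector; red, FOXD2), points are single libraries, and the number of genes in each sum is in parentheses. The pro-survival sum goes from 187.0 and 190.9 to 327.8 and 318.1 TPM, while the BH3-only sum is 133.6 and 133.8 against 137.8 and 127.4 TPM.

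Both pore-forming effectors on the list rose, with fitted changes under 1.5-fold. BAK1, which resides on the outer mitochondrial membrane, went from 24.5 ± 1.68 to 34.6 ± 0.245 CPM (SD, n = 2), a log2 fold change of 0.50 (SE 0.10, adjusted p = 2.71e-05 in edgeR). BOK, an effector that is kept low by protein degradation, went from 35.7 ± 1.13 to 52.4 ± 3.79 CPM (SD, n = 2), a log2 fold change of 0.56 (SE 0.09, adjusted p = 2.68e-07 in edgeR). Their summed TPM was 33.7 and 35.1 against 51.6 and 50.1. The p53-controlled members of the family, which were not among the 33, split in direction: the effector BAX and the BH3-only gene BBC3 (PUMA) rose by log2 0.39 (SE 0.09) and 0.40 (SE 0.13), and the BH3-only gene PMAIP1 (NOXA) fell by 0.96 (SE 0.09) on the log2 scale.

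Of the 6 BH3-only genes 1 rose, 1 fell and 4 did not pass. BMF, a BH3-only protein tied to the cytoskeleton in healthy cells, stood at 2.14 and 1.19 CPM without and 3.72 and 5.05 CPM with FOXD2. Behind these values stand only 30 and 18 against 58 and 74 counts. Both FOXD2 libraries lay above both controls, and the fitted rise was 2.64-fold (log2 1.40, SE 0.30, adjusted p = 8.82e-05 in edgeR). The call was lost on the TPM scale. There the log2 difference was 0.41 (limma adjusted p = 0.0932) at a pseudocount of 1, which compresses differences of genes this low. At a pseudocount of 0.1 it was 0.73 (limma adjusted p = 0.111). With no pseudocount the log2 ratio of mean TPM was 0.83, and TPM also depends on the estimated transcript length described below. BID, which links death receptors to mitochondria after cleavage by CASP8, went from 49.1 ± 0.527 to 36.8 ± 2.7 CPM (SD, n = 2), a log2 fold change of -0.41 (SE 0.09, adjusted p = 5.97e-05 in edgeR). BID was also the most abundant BH3-only gene per length in the empty vector libraries, at 57.8 and 58.5 TPM, and BAD, a BH3-only protein switched off by phosphorylation, stood at 45.5 and 45.2 TPM there. In the FOXD2 libraries their order was not fixed, with BID at 49.1 and 42.5 and BAD at 48.4 and 51.6 TPM.

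For BIK and BCL2L11 the FOXD2 libraries differed, and which of them was kept decided whether the test was passed. BIK, a BH3-only protein of the endoplasmic reticulum, had 11.5 and 11.8 CPM in the empty vector libraries and 16.04 and 12.4 CPM in FOXD2 replicates 1 and 2. Its log2 fold change was 0.29 (SE 0.14, adjusted p = 0.0779 in edgeR), and 0.46 with adjusted p = 0.00709 without FOXD2 replicate 2 but 0.089 with adjusted p = 0.688 without FOXD2 replicate 1. BCL2L11 (BIM), which binds all pro-survival members, had 32.0 and 32.9 CPM without and 38.9 and 33.2 CPM with FOXD2, the second of these close to the controls. Its log2 fold change was 0.15 (SE 0.09, adjusted p = 0.170 in edgeR), and 0.26 with adjusted p = 0.0268 without FOXD2 replicate 2 but 0.029 with adjusted p = 0.851 without FOXD2 replicate 1. BCL2L11 shares its locus with MIR4435-2HG on the opposite strand, which had 259 and 312 counts without and 796 and 700 with FOXD2, and whether the counting used strand is not given in the sources used here. BAD likewise overlaps GPR137 on the opposite strand (139 and 120 against 364 and 314 counts). The log2 fold changes of BAD and of HRK, a BH3-only gene best known from neurons, were 0.13 (SE 0.10) and -0.17 (SE 0.24), with edgeR adjusted p of 0.284 and 0.584. The summed TPM of the 6 genes was 133.6 and 133.8 against 137.8 and 127.4, so that the groups overlapped.

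BCL2L12 and BCL2L13, relatives of the family with roles that are less settled, did not pass the test. Their log2 fold changes were -0.04 (SE 0.08) and 0.00 (SE 0.08), with edgeR adjusted p of 0.720 and 0.975. BCL2L13 lies on chromosome 22 with its end 3.283 kb from the end of BID, on the opposite strand, and BID fell. BCL2L12 overlaps IRF3 on the opposite strand, which had 601 and 630 against 665 and 616 counts.

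Downstream of mitochondria, the scaffold of the apoptosome gave the largest fall among the 31. APAF1 stood at 28.4 and 25.4 CPM without and at 12.7 and 13.99 CPM with FOXD2. Both FOXD2 libraries lay far below both controls, and the fitted fall was 2.02-fold (log2 -1.01, SE 0.12, adjusted p = 1.90e-10 in edgeR). DIABLO had 47.6 and 56.3 CPM without and 45.5 and 44.6 CPM with FOXD2, and empty vector replicate 2 stood apart from the other 3 libraries. Its log2 fold change of -0.21 (SE 0.09, adjusted p = 0.0364 in edgeR) became -0.08 with adjusted p = 0.604 without that library, and -0.19 with adjusted p = 0.0817 without FOXD2 replicate 2. With all 4 libraries DIABLO did not pass in DESeq2 (adjusted p = 0.159) or limma-voom (adjusted p = 0.0583). APAF1 passed in each of the 4 fits that left out 1 library, with log2 fold changes from -1.09 to -0.93.

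Of the 4 initiator caspases CASP2 passed the test, and CASP8, CASP9 and CASP10 did not. CASP2, which is activated on the PIDD1 platform, had 71.2 and 76.7 CPM without and 62.4 and 63.1 CPM with FOXD2, with no overlap of the groups. Its log2 fold change was -0.24 (SE 0.08, adjusted p = 0.00678 in edgeR), and -0.18 with adjusted p = 0.153 without empty vector replicate 2. The genes of its platform went the other way: PIDD1 rose by log2 0.68 (SE 0.10) and its adaptor CRADD by 0.38 (SE 0.15, adjusted p = 0.0309 in edgeR). CASP9, the caspase of the apoptosome, had 8.57 and 8.87 CPM without and 11.7 and 9.83 CPM with FOXD2. Its log2 fold change was 0.30 (SE 0.16, adjusted p = 0.0969 in edgeR), and 0.42 with adjusted p = 0.0376 without FOXD2 replicate 2 but 0.17 with adjusted p = 0.483 without FOXD2 replicate 1. CASP8 and CASP10, the caspases of death receptors, had log2 fold changes of -0.04 (SE 0.10) and -0.21 (SE 0.32), with edgeR adjusted p of 0.755 and 0.600, and CASP10 rested on 31 to 36 counts per library.

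CASP6 was the only executioner caspase among the 33, and it did not pass the test on counts. It had 11.5 and 13.6 CPM without and 11.5 and 14.5 CPM with FOXD2, a log2 fold change of 0.05 (SE 0.14, adjusted p = 0.796 in edgeR). On the TPM scale it had 16.5 and 16.5 against 19.98 and 22.01, and limma on log2(TPM + 1) gave a log2 difference of 0.33 with adjusted p = 0.0435. The count and the TPM differ in the transcript length behind them, which is described below. CASP6 overlaps MCUB on the opposite strand (384 and 417 against 265 and 250 counts).

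CASP4, the human sensor of intracellular lipopolysaccharide that cuts GSDMD, was the caspase with the largest difference. It had 9.14 and 10.5 CPM without and 19.4 and 22.7 CPM with FOXD2. The lower FOXD2 library lay well above the higher control, and the fitted rise was 2.14-fold (log2 1.099, SE 0.13, adjusted p = 6.49e-10 in edgeR). The window shown above carries its 3 IRF cores. CASP4 lies on chromosome 11 in a row of related genes on the same strand, CASP12, CASP4, CASP5, CASP1, CARD16 and CARD18, and the other 5 genes of that row had 0 counts in all 4 libraries.

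Both gasdermins among the 33 rose. GSDME, which is cleaved in apoptotic cells, had 8.22 and 7.28 CPM without and 26.8 and 24.0 CPM with FOXD2. This was the largest difference among the 31 genes, with a fitted rise of 3.28-fold (log2 1.71, SE 0.13, adjusted p = 2.78e-16 in edgeR). GSDMD, which is cut by CASP4, went from 34.5 ± 1.29 to 46.1 ± 0.748 CPM (SD, n = 2), a log2 fold change of 0.42 (SE 0.09, adjusted p = 5.86e-05 in edgeR). Per length, GSDMD stayed the more abundant, at 28.8 and 30.0 against 35.5 and 39.1 TPM, beside 5.14 and 4.43 against 17.7 and 15.8 TPM for GSDME. Outside the 33, GSDMB did not pass the test (log2 fold change 0.33, SE 0.16, adjusted p = 0.0857 in edgeR), and GSDMA was at 0 counts in all libraries. On a low level, GSDMC had 1 and 0 counts without and 15 and 13 with FOXD2, a ratio of 27.0 with a 95% counting interval from 4.46 to 1102. GSDMC passed the low-count filter through the FOXD2 libraries alone. The interval pools the counts of each group and holds no spread between libraries.

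**Figure D3:**
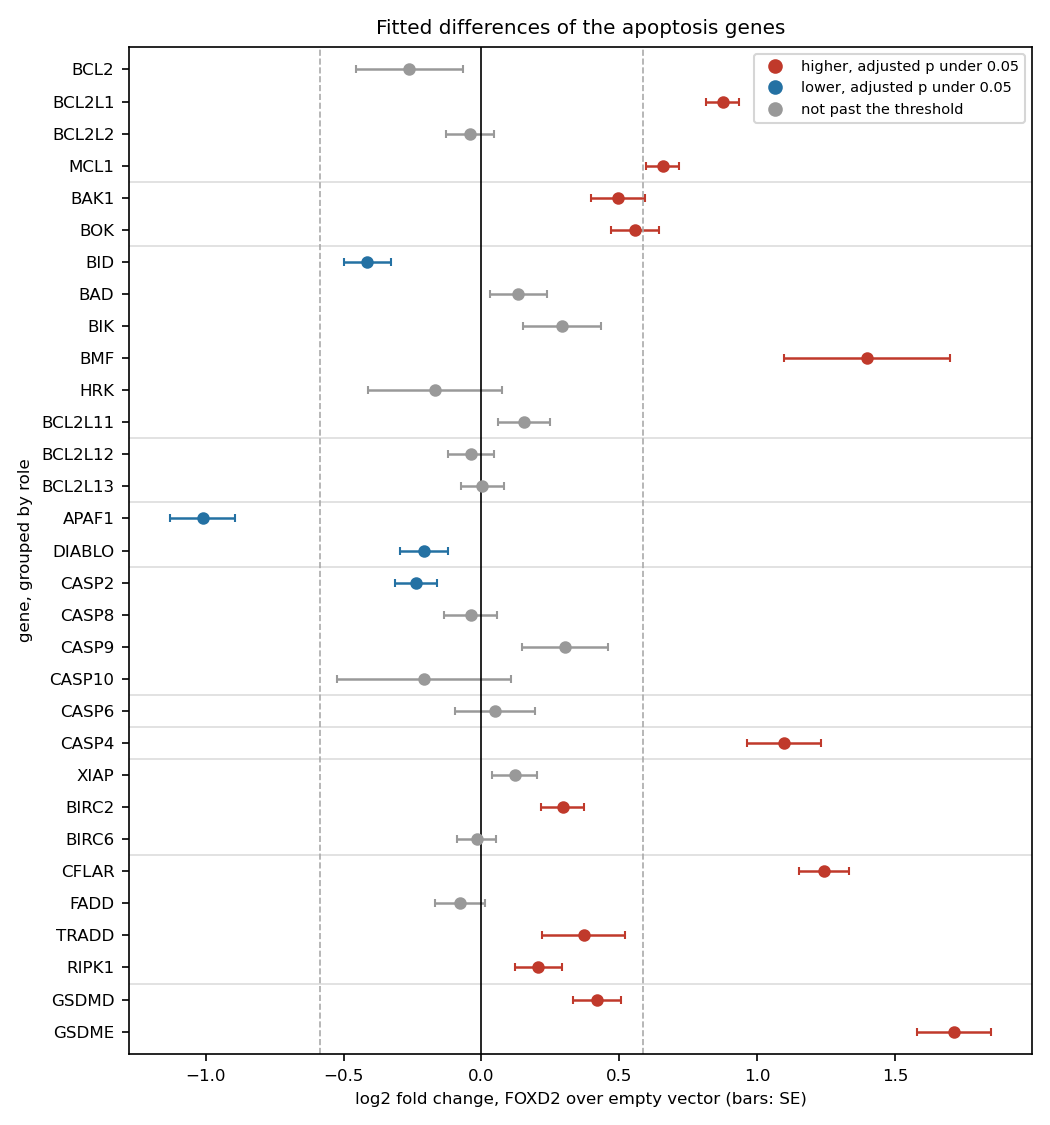
Log2 fold change of FOXD2 over empty vector for each of the 31 tested genes, with bars of 1 SE; red and blue points passed the edgeR test upwards and downwards, grey points did not, and dashed lines mark 1.5-fold. GSDME lies farthest to the right at 1.71 and APAF1 farthest to the left at -1.01.

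Among the IAP proteins BIRC2 (cIAP1), a ubiquitin ligase of the TNF receptor complex, rose, and XIAP and BIRC6 did not pass the test. BIRC2 went from 54.6 ± 1.65 to 67.0 ± 2.45 CPM (SD, n = 2), a log2 fold change of 0.29 (SE 0.08, adjusted p = 0.00123 in edgeR), and the call was lost on the TPM scale at a similar size (log2 difference 0.25, limma adjusted p = 0.112 on log2(TPM + 1)). BIRC3 (cIAP2), its neighbour 7.808 kb away on chromosome 11 and not among the 33, had 3.86 and 3.64 against 11.5 and 11.7 CPM, a log2 fold change of 1.63 (SE 0.18, adjusted p = 6.05e-11 in edgeR). XIAP, the direct inhibitor of caspases, had a log2 fold change of 0.12 (SE 0.08, adjusted p = 0.226 in edgeR). BIRC6, a very large IAP with a ubiquitin-conjugating domain, had -0.02 (SE 0.07, adjusted p = 0.851 in edgeR). The levels of XIAP were 45.9 ± 0.593 and 49.9 ± 2.46 CPM and those of BIRC6 were 111.2 ± 9.19 and 109.9 ± 6.01 CPM (SD, n = 2). Their summed TPM with BIRC2 was 61.7 and 58.0 against 63.0 and 68.2.

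At the death receptors CFLAR gave the clearest rise. It had 27.1 and 23.2 CPM without and 57.6 and 61.2 CPM with FOXD2. Each FOXD2 library was above both controls by more than the controls differed from each other, and the fitted rise was 2.37-fold (log2 1.24, SE 0.09, adjusted p = 3.11e-17 in edgeR). FADD, the adaptor that bridges the receptors to CASP8, had a log2 fold change of -0.08 (SE 0.09, adjusted p = 0.491 in edgeR). CFLAR (chr2:201116104-201176687), CASP10 (chr2:201182881-201229406) and CASP8 (chr2:201233443-201287711) follow each other on the plus strand in GRCh38, 6.194 and 4.037 kb apart with no protein-coding gene between them. Of this cluster CFLAR passed the test and the 2 caspase genes did not, and the difference between them was not tested.

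TRADD and RIPK1, the adaptor and the kinase of the TNF receptor complex, passed the test narrowly. TRADD had 9.50 and 9.06 CPM without and 12.5 and 11.5 CPM with FOXD2, a log2 fold change of 0.37 (SE 0.15, adjusted p = 0.0326 in edgeR). The log2 fold change was 0.40 (adjusted p = 0.0893) without empty vector replicate 1, 0.34 (0.167) without empty vector replicate 2 and 0.30 (0.153) without FOXD2 replicate 1. TRADD overlaps FBXL8 on the opposite strand, which had 56 and 52 against 91 and 107 counts. RIPK1 had 44.5 and 41.8 CPM without and 49.1 and 50.4 CPM with FOXD2, a log2 fold change of 0.21 (SE 0.08, adjusted p = 0.0337 in edgeR). The difference was 0.25 (adjusted p = 0.0677) without empty vector replicate 1, 0.16 (0.264) without empty vector replicate 2 and 0.19 (0.0898) without FOXD2 replicate 2. For both genes the groups did not overlap, and the call ended when any of 3 libraries was left out.

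The estimated mean transcript length of a gene, which the authors' tables give per library as the mean over its transcripts weighted by their abundance, moved in 5 of the 31 genes (groups not overlapping and means at least 10% apart, a rule chosen after these values were seen). The same held for 12.1% of all tested genes, so the share is near the background, and no test was made. CASP10 had 2600 and 3949 bases without and 5204 and 5668 with FOXD2. Its counts were 36 and 33 against 31 and 31, whereas its TPM was 1.38 and 0.73 against 0.51 and 0.51. The estimate was longer in both FOXD2 libraries, and TPM, which is computed with it, separated the groups more than the counts did. CFLAR had 4270 and 3573 against 5225 and 4509 bases, and its TPM of 8.53 and 8.59 against 14.7 and 18.6 gives a smaller log2 ratio of means, 0.96, than the counts do. BMF had 3946 and 2171 against 4453 and 4545 bases, and empty vector replicate 2 stood apart. The log2 ratio of mean TPM of BMF, 0.83, was likewise smaller than that of its counts. CASP6, with 1102 and 1236 against 944 and 1070 bases, and BCL2L13, with 3386 and 3268 against 2982 and 2921, had shorter estimates with FOXD2. XIAP had 4116, 4226 and 4136 bases in 3 libraries and 5945 in FOXD2 replicate 2. These lengths come from short reads assigned to transcripts by a model, and transcripts themselves were not analysed here.

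**Figure D4:**
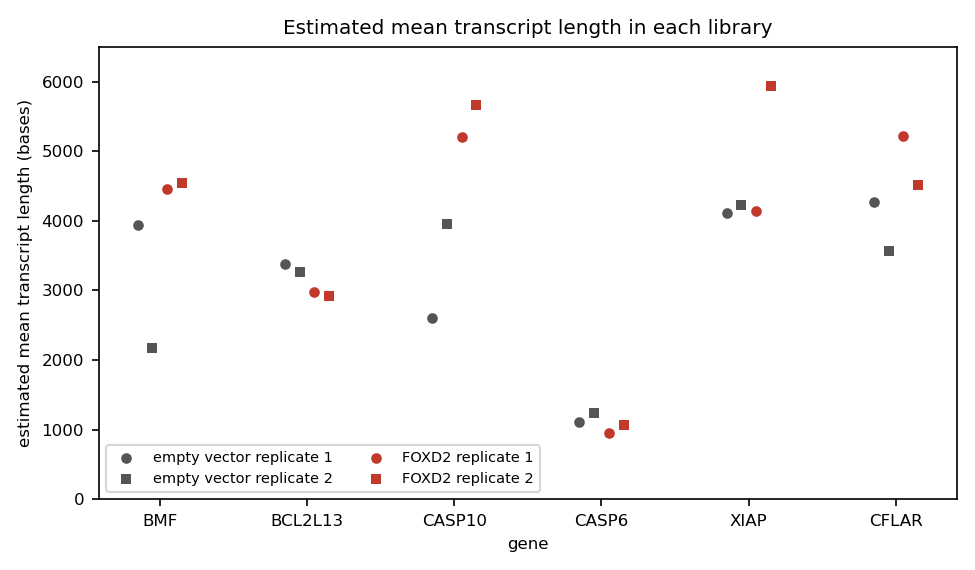
Estimated mean transcript length in bases for 6 genes in each library, with empty vector libraries in grey, FOXD2 libraries in red, circles for replicate 1 and squares for replicate 2. CASP10 goes from 2600 and 3949 to 5204 and 5668 bases, and XIAP stands apart in FOXD2 replicate 2 alone, at 5945 bases.

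Genes of the same pathways outside the 33 were read from 7 lists of 82 genes, of which 59 were tested. In all 23 rose and 22 fell, 76.3% of the 59 beside 53.5% of all tested genes, and the median log2 fold change was 0.10. The lists were chosen with earlier results of these data known, so this share is not independent evidence. The counts below stand beside 27.2% higher and 26.4% lower among all genes, and no list was tested against them. Of 10 death receptors and ligands 7 rose and 1 fell. The 4 TRAIL receptor genes of chromosome 8 all rose, TNFRSF10C, a decoy receptor, the most (log2 1.14, SE 0.23), and so did the death receptor TNFRSF25 (1.04, SE 0.15), while the receptor TNFRSF21 fell (log2 -1.20, SE 0.08). FASLG and TNF, which encode ligands, were at 0 counts in all libraries.

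The mitochondrial machinery went mostly down, with 8 of 13 genes lower, 2 higher and a median log2 fold change of -0.33. CYCS, the gene of cytochrome c, fell by 0.34 (SE 0.06) on the log2 scale. BCL2L15, a BCL2 relative at 11 and 24 against 44 and 52 counts, rose (log2 1.40, SE 0.34). Of 9 executioners and substrates 5 fell, PARP1 (log2 -0.49, SE 0.05) among them, and 2 rose, PIDD1 and CRADD. Of 5 other IAP genes and IAP regulators BIRC3 and SEPTIN4, a septin gene of which 1 isoform, ARTS, is an XIAP antagonist and whose isoforms are pooled here (log2 1.70, SE 0.21) rose and BIRC5, the survivin gene of dividing cells, fell (log2 -0.44, SE 0.06).

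In the TNF receptor complex and necroptosis list 4 of 12 genes rose and 4 fell. TNFAIP3 (A20), a ubiquitin-editing inhibitor of NF-kB signalling, gave the largest difference there, from 4.64 and 3.64 to 26.5 and 25.3 CPM (log2 2.65, SE 0.15). MLKL, the pore protein of necroptosis, rose (log2 0.79, SE 0.14), and RIPK3, the kinase that activates it, was at 0 counts in all 4 libraries. Of the 18 inflammasome and pyroptosis genes 7 were tested, 4 rose and 2 fell, and 1 of the 4 is GSDMC, which passed the low-count filter through the FOXD2 libraries alone. NLRP1, an inflammasome sensor of epithelia, rose (log2 1.06, SE 0.22), while the sensors NLRP3 and AIM2 and the adaptor PYCARD were at 0 counts in all libraries.

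**Figure D5:**
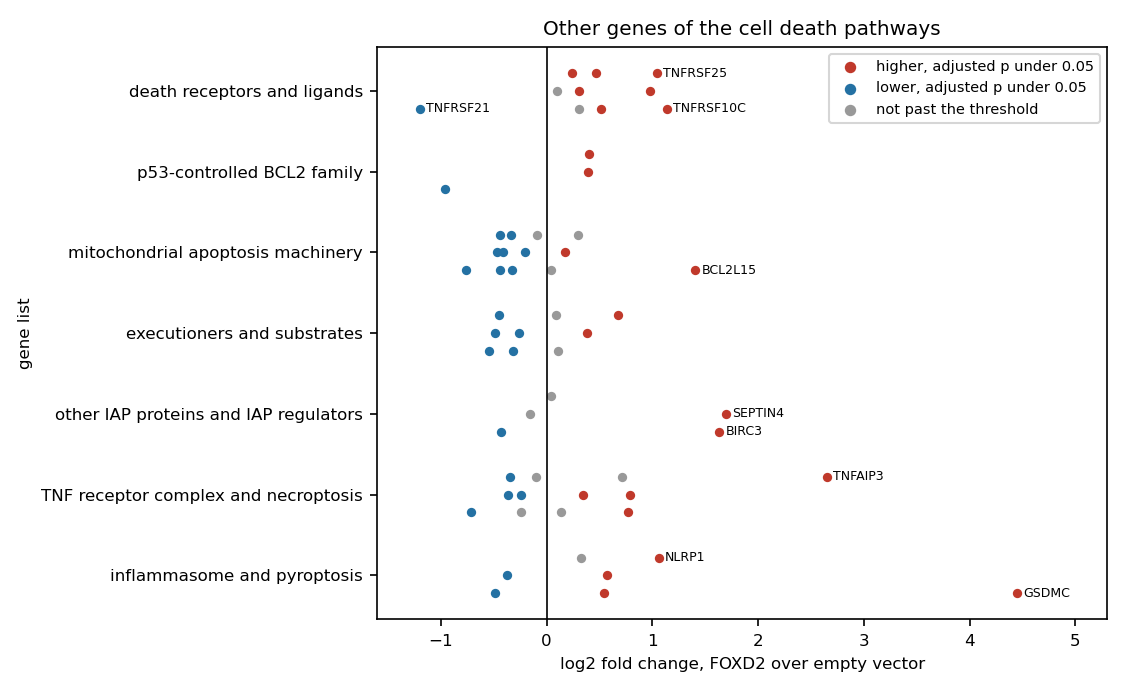
Log2 fold change of FOXD2 over empty vector for the 59 tested genes of 7 cell death gene lists outside the 33; red and blue points passed the edgeR test upwards and downwards, grey points did not, and the names mark fitted changes of at least 2-fold. The mitochondrial list has 8 blue points of 13, and the point of GSDMC rests on 1 count in the empty vector libraries.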

How the data were processed

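RNA was sequenced from 4 libraries, 2 of empty vector and 2 of FOXD2 cells, made with a directional kit per the labels. The authors deposited RSEM tables of expected counts, TPM, posterior SD and estimated transcript length per gene and library. STAR 2.7.2b, RSEM 1.2.31 and the build GRCh38 are named in the submitters' processing notes. The annotation release and the strand setting of the counting are not given in the sources used here. The deposited expected counts, which are not normalized, were rounded to whole numbers and tested in edgeR 4.0.16 (R 4.3.3) with TMM scaling, its default low-count filter and the robust quasi-likelihood test, on group alone, two-sided, with Benjamini-Hochberg adjustment over 14470 genes and a threshold of 0.05. SE is the log2 fold change divided by the square root of F. The deposited TPM values, which the authors' RSEM scaled for transcript length and depth, were used for levels between genes and, in limma 3.58.1, as an alternative with pseudocounts of 1 and 0.1. The biological coefficient of variation was 4.99%. Totals per library were 14245792 and 15535845 (empty vector) and 15340185 and 14231368 (FOXD2). Coordinates are those of GENCODE 29 on GRCh38, and 60370 of 60683 identifiers had a symbol. Alternatives were other scalings, filters and tools (DESeq2 1.42.0, limma-voom), each library left out and a replicate block.

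The 33 genes and the pathway lists were chosen with earlier results of these data known. Neither their direction nor the share of them that passed the test is therefore independent evidence. Values per library were given for genes past the threshold with at least 1.5-fold change and for genes whose call ended when 1 library was left out. BIK, BCL2L11, CASP9 and CASP6 got them after their values were seen. Pathway genes were named at 2-fold or more; BAX, BBC3, PMAIP1, CYCS, PARP1, PIDD1, CRADD, BIRC5, MLKL and the genes listed at 0 were chosen after their values were seen.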

Additional observations from a re-analysis of the deposited data

How the results depend on the processing

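Of the 16 genes that passed, 10 kept their call under all 13 alternatives (BCL2L1, MCL1, BAK1, BOK, BID, APAF1, CASP4, CFLAR, GSDMD and GSDME), 0 reversed, and BMF, DIABLO, CASP2, BIRC2, TRADD and RIPK1 lost it under at least 1. The number of these genes that fell was 4 and became 2 without scaling factors and 2 with limma on log2(TPM + 1) or log2(TPM + 0.1). With 1 library left out (its partner then being taken to vary as the full group does) there were 10 to 14 higher and 2 to 4 lower, the 2 without empty vector replicate 2. Over all genes 3814 fell, and 2424 and 2415 with limma at pseudocounts of 1 and 0.1. The cause of these shifts was not tested. Libraries of both groups share only a number, with a correlation of deviations of -0.10 between same-numbered libraries. With the replicate block 10 genes were higher and 3 lower, and DIABLO (adjusted p = 0.0687), TRADD (0.0541) and RIPK1 (0.0664) lost the call. Genes that had not passed changed sign as follows, as log2 fold changes. Without scaling factors BCL2L2 was 0.022, BCL2L12 0.026, CASP8 0.026 and BIRC6 0.047. On log2(TPM + 1) and log2(TPM + 0.1) BCL2L12 was 0.017 and 0.017, CASP8 0.077 and 0.081, XIAP -0.097 and -0.10, and BIRC6 0.10 and 0.10. BCL2L13 was -0.0039 with DESeq2 size factors, -0.0040 with DESeq2 and -0.012 without the filter. With 1 library left out BCL2L2 ranged from -0.091 to 0.0015, HRK from -0.40 to 0.13, BCL2L13 from -0.013 to 0.020, CASP8 from -0.092 to 0.018, CASP6 from -0.13 to 0.21 and BIRC6 from -0.10 to 0.069. BIK (adjusted p = 0.0368) and CASP9 (0.0468) also passed without scaling factors. Depth limits BMF, CASP10 and HRK most, at 18 to 78 counts per library.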
